A study of Zea mays with 18 samples.

Results

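Roots of the maize inbred line T250 after 1 d of growth without nitrogen (N) were compared with T250 roots at 0 d, the moment at which N was withheld. The comparison held 6 of the 18 arrays of the series, the 3 labelled T250 1 d and the 3 labelled T250 0 d. T250 is a line of low N use efficiency, and the rest of the arrays were T250 roots at 4 d and roots of Lo5, an inbred line of higher N use efficiency, at 0, 1 and 4 d. All seedlings had germinated in the dark and had then stood in a calcium sulfate solution in the light, so that the 0 d roots had not been fed N either, before the 1 d seedlings were moved to a nutrient solution that lacked N. That solution also brought magnesium, potassium, phosphate, iron and micronutrients, which the calcium sulfate solution lacked. No array held roots supplied with N. Therefore 1 d without N, 1 d of growth and 1 d of supply with these other nutrients cannot be told apart. Each array carried the RNA of 1 sample, which pooled the whole roots of 3 seedlings from 1 of 3 repeated growth experiments.

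Plants take up N mainly as nitrate and ammonium, through transporters of the root plasma membrane, and reduce nitrate by nitrate reductase before the N enters glutamine, glutamate and asparagine. When N runs short, the root changes how much nitrate it loads into the xylem, the vessels that lead to the shoot, and it recovers N from its own proteins by senescence and autophagy. Gibberellins, auxin and the cell wall enzymes set how fast the root elongates meanwhile.

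The level of a transcript is given here as the log2 of its array signal relative to the 75th percentile of that array, so that a level of 0 lies at the 75th percentile and each unit below it is a halving of the signal. On the 6 arrays between 28868 and 32446 of 39372 probes stood well above background, the scanner software's call of detection, and between 5.9% and 12.3% of the spots were marked as non-uniform or as outliers and were left out. The number of arrays limits the precision. All 5 root markers looked up by symbol (the root transcription factors SCR and rtcs1, the root cap protein RCP1 and the nitrate transporters nrt2.1 and nrt2.2) were well above background on each of the 6. Of 3 root markers looked up by description, 2 were so on all 6 arrays and 1 on some of them. Of 16 probes for Rubisco, light-harvesting and photosystem proteins, 5 were well above background on all 6 arrays and 4 on none, and of 24 zein probes (kernel storage proteins) 6 were so on all and 12 on none. None of these markers passed the test described below, but 1 of 5 transcripts described as seed proteins did, a seed maturation protein (GRMZM2G000536) with a log2 ratio of -1.59. The part of these markers in the results was not tested.

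The T250 arrays did not fall into groups by time alone. T250 0 d replicate 1 correlated with T250 1 d replicate 1 at 0.973 across transcripts, against 0.882 and 0.866 with T250 0 d replicates 2 and 3 of its own group. T250 1 d replicate 1 likewise correlated with T250 1 d replicates 2 and 3 at only 0.908 and 0.915. Both replicates numbered 1 lay on 1 slide, scanned on another day than the 2 slides that carried the replicates numbered 2 and the replicates numbered 3. To place the arrays with no use of the 1 d against 0 d contrast, 755 transcripts were picked on the T250 4 d arrays alone, as those where 4 d replicate 3 differed by at least 4 log2 units from replicates 1 and 2 while those 2 lay within 1 unit of each other. On a scale from 0 (4 d replicates 1 and 2) to 1 (4 d replicate 3), the median position of these transcripts was 0.09, 0.09 and 0.11 in T250 1 d replicates 1, 2 and 3. It was 0.10 in T250 0 d replicate 1, but 0.91 and 0.94 in T250 0 d replicates 2 and 3. Thus T250 0 d replicates 2 and 3 shared a profile with T250 4 d replicate 3. At the median transcript the other 6 T250 arrays lacked this profile. There 2 of the 3 T250 0 d arrays differed from every T250 1 d array in more than time. In T250 1 d roots the upper quartile of the position was 0.16, 0.50 and 0.60 in replicates 1, 2 and 3. Part of the transcripts thus lay towards the shared profile in T250 1 d replicates 2 and 3. A scale from T250 to Lo5 was set by the mean of the T250 0 d arrays (0) and that of the Lo5 0 d arrays (1). Over 2306 probes far apart between these means, every T250 array lay between -0.03 and 0.03. The T250 0 d arrays themselves set the 0 and the choice of probes, so this scale cannot place them independently. Slide and scan day went with the replicate number for these 6 arrays. The labels do not name the growth experiment of an array, which the replicate number was taken to mark. The part of slide, scan day and growth experiment in this split was not tested.

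**Figure D1:**
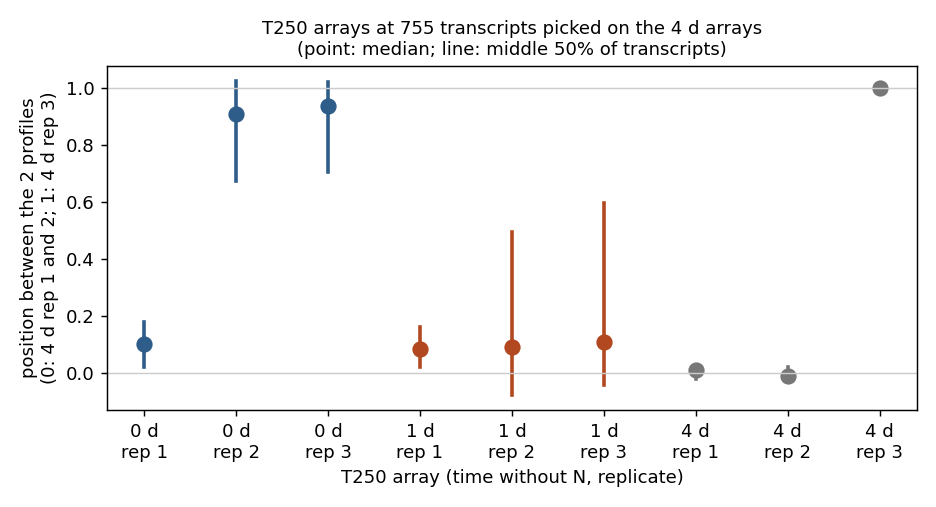
Median position (points) of 9 T250 arrays between 2 profiles, over 755 transcripts picked on the 4 d arrays, with the middle 50% of transcripts as lines; 0 is the mean of 4 d replicates 1 and 2, and 1 is 4 d replicate 3. T250 0 d replicates 2 and 3 sit at 0.91 and 0.94, and T250 0 d replicate 1 sits at 0.10 with the 1 d arrays.

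The first question was how many transcripts differed between T250 1 d and T250 0 d roots. The threshold of the study's methods, an unadjusted p of at most 0.01 with a change of at least 2-fold, was passed by 178 of 25034 transcripts tested (0.711%). Of these, 87 (0.348%) were higher in T250 1 d roots and 91 (0.364%) were lower. All 178 had 1 d and 0 d levels that did not overlap, as had 13.0% of all transcripts tested. In all, 191 transcripts had an unadjusted p of at most 0.01, fewer than the 250 that make up 1% of those tested. After Benjamini-Hochberg adjustment over all transcripts, 1 transcript (0.00399%) remained at an adjusted p of at most 0.05. The replicate number was also used as a block, which pairs the arrays of 1 slide and, as was assumed, of 1 growth experiment. With it, 214 transcripts passed the unadjusted threshold and none the adjusted one. Of 40 transcripts that were named by the rule of selection and had passed, 31 passed with the block too. With the t-test of the study's methods in place of limma, 25 of the 40 passed. In what follows, "rose" and "fell" mean that a transcript passed the unadjusted threshold, and p-values rest on the spread of 3 arrays a group. A lower level in whole roots may come from fewer cells of a type or from less RNA per cell, which cannot be told apart.

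These counts depended on T250 0 d replicate 1. Without it, 1237 transcripts passed the unadjusted threshold and 511 the adjusted one, 336 of them higher (1.52% of 22162 tested) and 175 lower (0.790%) in T250 1 d roots. In that fit every T250 0 d array had the profile at the median transcript and no T250 1 d array did. Time and profile thus cannot be told apart. The same limit holds for each adjusted p from that fit given below for a single transcript. Of 497 of the 511 that were measured on the 4 d arrays, 382 (76.9%) also differed by at least 1 unit in T250 4 d replicate 3, in the direction of T250 0 d replicates 2 and 3. The size of such differences is seen in eIF3A (GRMZM2G093050), a translation initiation factor chosen after its values were seen. Its level was 2.30 and 2.08 in T250 1 d replicates 1 and 2, against 2.05, -8.69 and -8.64 in T250 0 d replicates 1, 2 and 3. One T250 0 d array thus lay among the 1 d arrays, and the other T250 0 d arrays lay at the bottom of the scale, as did T250 4 d replicate 3 at -8.90.

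**Figure D2:**
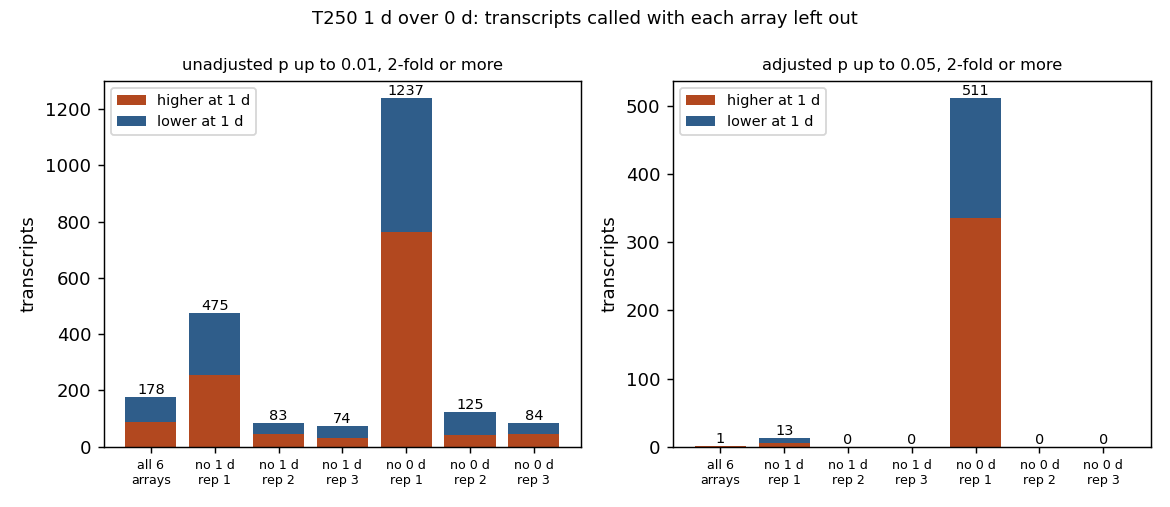
Number of transcripts higher (orange) and lower (blue) in T250 1 d than in T250 0 d roots, in the fit of all 6 arrays and with each array left out, at an unadjusted p of at most 0.01 (left) or an adjusted p of at most 0.05 (right), both with a change of at least 2-fold. The count at the left is 178 with all arrays and 1237 without T250 0 d replicate 1, against 74 to 475 without each of the others.

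Against this background, the pair on slide 1 compared T250 1 d with T250 0 d within 1 profile. Between the replicates numbered 1, 466 transcripts were at least 1 unit higher and 720 at least 1 unit lower at 1 d, of 24522 measured. The pair of replicates numbered 2 gave 2233 and 2022, and the pair numbered 3 gave 3151 and 2608. Of the 178 transcripts past the unadjusted threshold, 161 were measured on both arrays of slide 1, and 85 of these differed by at least 1 unit there. Slide 1 was part of the fit that picked the 178, so this count is not independent of it. In a further fit T250 0 d replicate 1 alone stood for 0 d. This fit takes the lone 0 d array to vary as the 1 d arrays did, so only log2 ratios are given here. The log2 ratio was 2.87 for nitrate transporter 1.5, 1.595 for gibberellin 2-oxidase 8, 2.07 for a malate transporter and 2.20 for the anthranilate methyltransferase AAMT1. It was -3.35 for an amino acid transporter (GRMZM2G137161) and -2.44 for organic cation/carnitine transporter 2. These transcripts were chosen after their values were seen, and the fit reuses arrays of the main one, so the ratios are not separate evidence.

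Nitrate transporter 1.5 (GRMZM2G044851), which in Arabidopsis loads nitrate into the root xylem, rose at 1 d. Its level was 3.72, 3.82 and 3.89 in T250 1 d replicates 1, 2 and 3, against 0.94, 0.65 and 0.36 in T250 0 d replicates 1, 2 and 3. The groups were far apart and each group was tight. The log2 ratio was 3.16 (SE 0.25), an 8.94-fold rise with an adjusted p of 0.0698. Without T250 0 d replicate 1 the adjusted p was 0.00409, and against T250 0 d replicate 1 alone the log2 ratio was 2.87. In T250 4 d roots, which are set against the same 0 d arrays, the level lay between 3.87 and 4.15 on all 3 arrays, near that at 1 d.

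The transporters that bring N into the root did not pass the threshold. The high-affinity nitrate transporter nrt2.1 (GRMZM2G010280) had levels of -0.93, -2.13 and -3.27 in T250 1 d roots, against -1.72, -1.97 and -1.19 in T250 0 d roots. Its neighbour in function nrt2.2 (GRMZM2G010251) had -0.36, 0.81 and -1.57 in T250 1 d roots, against 1.51 and -0.41 in T250 0 d replicates 1 and 3, with the spot of replicate 2 marked. For both, the 1 d arrays spread over more than 2 units and enclosed at least 1 of the 0 d values, and the log2 ratios were -0.48 (SE 0.60) and -0.92 (SE 0.89). On the 2 slides where both of its spots were measured, nrt2.2 was lower at 1 d (-1.88 and -1.16), and with the replicate block its log2 ratio was -1.52 (SE 0.29, unadjusted limma p of 0.0115), which just missed the threshold. NRT1.2 (GRMZM5G811593), of the low-affinity nitrate transporter family, had a log2 ratio of -0.16 (SE 0.29). A transcript described as ammonium transporter 2 (GRMZM2G043193) had -1.13, -2.22 and -1.72 in T250 1 d roots, against -1.92, -5.39 and -2.40 in T250 0 d roots. Its log2 ratio of 1.55 (SE 0.92) rested on T250 0 d replicate 2, and against T250 0 d replicate 1 alone it was 0.23. Of 7 probes with symbols of nitrate and ammonium transporters, 3 were tested and none passed, beside 0.711% of all transcripts.

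One of the 10 tested members of the N assimilation list passed, beside 0.711% of all transcripts, and it fell. This was the nitrate reductase NNR1 (GRMZM2G568636), the enzyme of the first step of nitrate assimilation. It had -0.72 and -0.90 in T250 1 d replicates 1 and 3, with replicate 2 marked, against 0.42, 0.10 and 0.29 in T250 0 d roots. No 1 d value reached a 0 d value, and the log2 ratio was -1.08 (SE 0.27, adjusted p = 0.864). With the replicate block it was -1.17 (SE 0.23), with an unadjusted p of 0.0124 that no longer passed. The second nitrate reductase transcript, NAR (GRMZM5G878558), followed the replicate number more than the time, with -2.30, 1.67 and -0.85 in T250 1 d roots, against -1.56, 1.90 and 0.86 in T250 0 d roots.

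The enzymes that place ammonium into glutamine and asparagine lay mostly near their 0 d levels. The cytosolic glutamine synthetase gln4 (GRMZM5G872068) had 4.44, 4.25 and 4.11 in T250 1 d roots, against 4.59, 3.80 and 3.98 in T250 0 d roots. The groups overlapped, with a log2 ratio of 0.14 (SE 0.29). Over the list the log2 ratios ran from -1.08 to 0.40 with a median of -0.05, beside a median of 0.02 over all transcripts. A further transcript, asparagine synthetase 2 (GRMZM2G078472), which makes asparagine, the form in which N is stored and moved, was not tested because 2 of its 0 d spots were marked. With marked spots kept it had 1.12, -0.01 and -0.35 in T250 1 d roots, against 3.68, 3.46 and 2.33 in T250 0 d roots. All 0 d spots, the unmarked one included, were above all 1 d spots, and the log2 ratio in that fit was -2.90 (SE 0.52), with an adjusted p of 0.795.

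**Figure D3:**
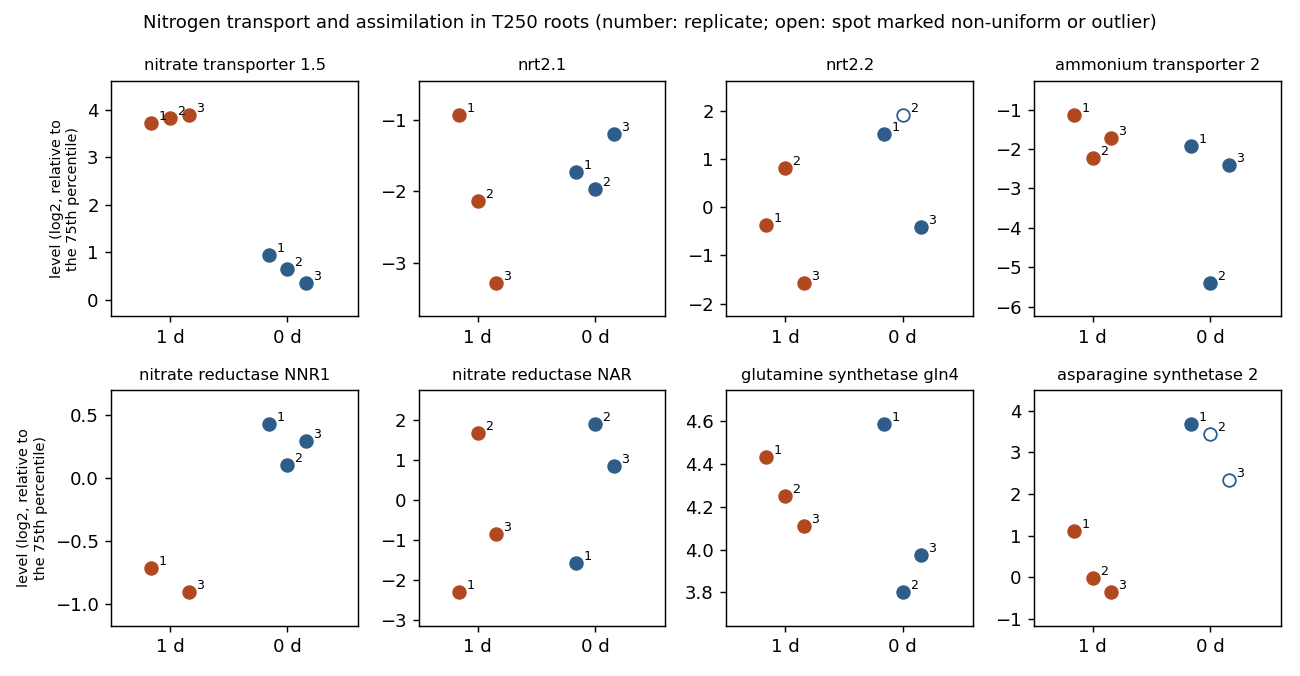
Level on each array (log2, relative to the array's 75th percentile) of 8 transcripts of N transport and assimilation in T250 1 d (left) and T250 0 d (right) roots, with the replicate number beside each point and open points for marked spots. Nitrate transporter 1.5 is higher and asparagine synthetase 2 is lower at 1 d on every array. Nitrate reductase NNR1 is lower at 1 d on every array with an unmarked spot, its marked spot in T250 1 d replicate 2 being left out. The groups of the other 5 overlap or differ by less than the spread.

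Transcripts of gibberellin metabolism were the next group. Gibberellin 2-oxidase 8 (GRMZM2G153359), of the enzymes that inactivate gibberellins, had -2.27, -2.60 and -2.55 in T250 1 d roots, against -4.07, -5.13 and -4.84 in T250 0 d roots. It rose by 2.21 (SE 0.33, 4.61-fold, adjusted p = 0.646), and its adjusted p without T250 0 d replicate 1 was 0.0126. The level in T250 4 d roots was -1.82, -2.83 and -4.89, so that 4 d replicate 3 lay with the 0 d arrays.

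A terpene synthase transcript with the RefSeq symbol KS (GRMZM2G049538), ent-kaurene synthase being an early enzyme of gibberellin synthesis, had -1.51, -1.50 and 1.52 in T250 1 d roots, against -3.49, -5.38 and -4.93 in T250 0 d roots. It rose by 4.11 (SE 0.94, 17.2-fold, adjusted p = 0.864), though not with the replicate block (unadjusted p of 0.0102). At 4 d its level was between -5.71 and -5.20, below T250 0 d replicates 1 and 3 on all 3 arrays and above replicate 2 on 1 of them. None of the other 7 tested members of the gibberellin list passed, and their log2 ratios ran from -1.13 to 1.12. Dwarf3 (GRMZM2G093195), a cytochrome P450 of gibberellin synthesis, had -0.17, 0.74 and 0.71 in T250 1 d roots, against 0.69, 0.85 and 1.11 in T250 0 d roots. The 2 groups overlapped. Dwarf8 (GRMZM2G144744), a DELLA repressor of gibberellin response, had a log2 ratio of -0.07 (SE 0.34).

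Other transcripts of the terpene synthase family went different ways. A terpenoid cyclase transcript with the RefSeq symbol TPS4 (GRMZM2G117319) had -8.02, -9.20 and -8.66 in T250 1 d roots, against -6.16, -4.89 and -4.01 in T250 0 d roots. It was lower at 1 d on every slide, but it was not tested, since no T250 1 d array and 2 of the 3 T250 0 d arrays had it well above background, and T250 4 d replicate 3 (-5.15) lay with T250 0 d while replicates 1 and 2 (-8.33 and -8.76) lay with T250 1 d. Another, GRMZM2G445854, had -3.02, 4.93 and -0.36 in T250 1 d roots, against -4.10, -4.92 and -2.11 in T250 0 d roots, and these overlapped.

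Among the 15 transcripts with a name that rose most, those that follow had the larger ratios or a known role. Plasmodesmata callose-binding protein 5 (GRMZM2G102322), of a family that binds callose at the channels between plant cells, had -3.78, -0.87 and -2.39 in T250 1 d roots, against -7.79, -9.07 and -8.62 in T250 0 d roots. At 0 d no array had it well above background, so the rise is a bound of at least 17.1-fold (fitted log2 ratio 6.15, adjusted p = 0.371). At 4 d it lay again between -8.71 and -6.32. ROTUNDIFOLIA like 4 (GRMZM2G136977), of a family of small peptides that limit cell proliferation in Arabidopsis, had -4.06, -2.87 and -2.45 in T250 1 d roots, against -6.36, -9.01 and -8.76 in T250 0 d roots. It was at least 9.95-fold higher at 1 d, and at 4 d it was again near the bottom of the scale in replicate 3 (-9.12), against -2.35 and -2.57 in replicates 1 and 2.

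An aluminium-activated malate transporter (GRMZM2G094860), of a family of anion channels, had 1.56, 1.37 and 1.13 in T250 1 d roots, against -0.72, -2.64 and -0.98 in T250 0 d roots. It rose by 2.80 (SE 0.53, 6.95-fold), with an adjusted p of 0.864 over all arrays and 0.0482 without T250 0 d replicate 1. A transporter of the EamA-like family (GRMZM2G140805) had -4.36, -1.52 and -1.39 in T250 1 d roots, against -6.60, -7.33 and -6.28 in T250 0 d roots, where 1 of the 3 arrays had it well above background. Its fitted log2 ratio was 4.32 (SE 0.83), of which the 0 d side is thus measured in part. In this family the direction was not shared, since another EamA-like transcript (GRMZM2G093173) fell. The anthranilate methyltransferases AAMT1 (GRMZM2G039993) and AAMT3 (GRMZM2G063438), which in maize make the volatile methyl anthranilate, rose together. AAMT1 had -1.04, -1.35 and -1.92 in T250 1 d roots, against -3.63, -3.11 and -3.71 in T250 0 d roots, a log2 ratio of 2.04 (SE 0.33). The log2 ratio of AAMT3 was 1.81 (SE 0.47), and the probes of 2 such similar genes may share signal.

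The thiamine synthesis gene thi2 (GRMZM2G074097) rose by 1.88 (SE 0.48), and poor homologous synapsis 1 (GRMZM2G100103), known for chromosome pairing in meiosis, by 2.38 (SE 0.51). Neither passed with the replicate block (unadjusted p of 0.0188 and 0.0145). Alternative oxidase 1A (GRMZM2G125669), a mitochondrial oxidase that bypasses part of the respiratory chain, had -0.88, -0.52 and -0.72 in T250 1 d roots, against -1.70, -1.89 and -2.35 in T250 0 d roots. The groups did not overlap, and the log2 ratio was 1.27 (SE 0.27, adjusted p = 0.864). Of the 2 alternative oxidases tested, the second, aox3, had a log2 ratio of 0.14 (SE 0.64).

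A hydroxycinnamoyl transferase (GRMZM2G025971) of the lignin branch had -1.49, -1.60 and -1.66 in T250 1 d roots, against -2.81, -3.20 and -3.18 in T250 0 d roots. This was a rise of 1.48 (SE 0.23), the adjusted p being 0.646 with all arrays and 0.0435 without T250 0 d replicate 1. At 4 d the same transcript lay between -5.83 and -3.53, below its 0 d levels on all 3 arrays. Cinnamoyl-CoA reductase 1 (GRMZM2G017285), a later enzyme of the lignin path, had -0.72, -2.38 and -2.81 in T250 1 d roots, against 0.47, -1.41 and -0.56 in T250 0 d roots, and these overlapped. Pectin methylesterase 61 (GRMZM2G158240), which removes methyl groups from wall pectin, rose by 1.18 (SE 0.32), but did not pass with the replicate block (unadjusted p of 0.0249). It was the 1 of 18 tested transcripts described as wall-loosening or wall-building enzymes to pass (5.56%), beside 8.01% of all transcripts with a description.

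**Figure D4:**
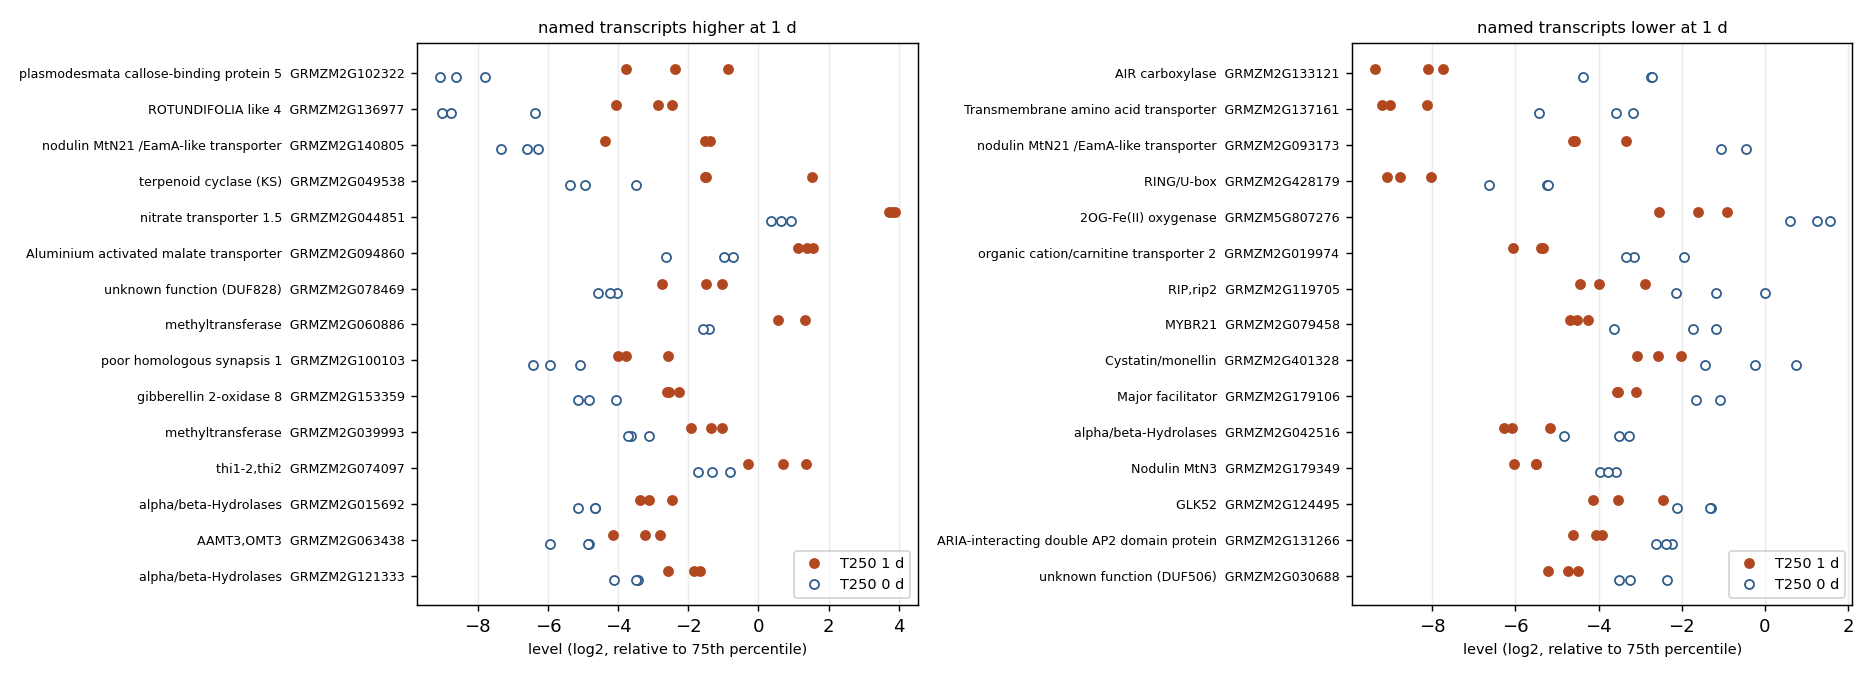
Level on each array (log2, relative to the array's 75th percentile) of the 15 named transcripts that rose most (left) and the 15 that fell most (right), with filled orange points for T250 1 d and open blue points for T250 0 d. The 2 groups do not overlap for any of the 30, which the choice of the transcripts fixes, and the summed SD of the 2 groups is smallest for nitrate transporter 1.5.

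Among the transcripts that fell most, an amino acid transporter (GRMZM2G137161) had -8.11, -9.20 and -9.02 in T250 1 d roots, against -5.42, -3.58 and -3.18 in T250 0 d roots. It was not well above background at 1 d and at least 6.13-fold lower there (fitted log2 ratio -4.72, adjusted p = 0.532). An AIR carboxylase (GRMZM2G133121), an enzyme of purine synthesis, was likewise below that call on every T250 1 d array and at least 10.5-fold lower. For both, T250 4 d replicate 3 lay at -2.18 and -2.38 and the other 4 d arrays at -7.25 or below, so that both transcripts carried the profile of T250 0 d replicates 2 and 3. Organic cation/carnitine transporter 2 (GRMZM2G019974) had -5.34, -5.39 and -6.06 in T250 1 d roots, against -3.16, -3.34 and -1.95 in T250 0 d roots, and it too was high in T250 4 d replicate 3 (-1.94).

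Other falls had a smaller difference among the 4 d arrays, where replicate 3 lay 0.13 to 1.97 units above the mean of replicates 1 and 2, towards T250 0 d replicates 2 and 3. The EamA-like transcript GRMZM2G093173 had -4.57, -3.34 and -4.62 in T250 1 d roots, against -1.06 and -0.45 in T250 0 d replicates 1 and 3, a log2 ratio of -3.42 (SE 0.50). At 4 d it lay between -5.10 and -3.94, below both 0 d values, with replicate 3 higher than the others by 1.11. The ribosome-inactivating protein gene rip2 (GRMZM2G119705) had -2.89, -4.44 and -4.00 in T250 1 d roots, against 0.00, -2.13 and -1.17 in T250 0 d roots, and was lower at 1 d by 2.31 to 2.89 units on each slide. A 2-oxoglutarate-dependent oxygenase (GRMZM5G807276), of a large family of hydroxylating enzymes, had -2.54, -0.90 and -1.62 in T250 1 d roots, against 0.60, 1.26 and 1.56 in T250 0 d roots. It fell by 2.83 (SE 0.48), with an adjusted p of 0.75, and at 4 d it had -4.37, -3.60 and -2.01, replicate 3 being 1.97 above the others. The MYB-related factor MYBR21 (GRMZM2G079458) fell by 2.31 (SE 0.63), though on slide 1 the difference was only -0.64 and it did not pass with the replicate block (unadjusted p of 0.0183), and the AP2-domain factor EREB60 (GRMZM2G131266) fell by 1.79 (SE 0.28).

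Of 5 tested transcripts tied to senescence or autophagy by their descriptions, 3 fell, beside 8.01% of all transcripts with a description that passed in either direction. Senescence-associated gene 12 (GRMZM2G095265), a cysteine protease, had -5.11, -5.45 and -5.26 in T250 1 d roots, against -4.03, -3.45 and -3.88 in T250 0 d roots, a log2 ratio of -1.48 (SE 0.26). AUTOPHAGY 6 (GRMZM2G027857), which in Arabidopsis helps to form the autophagosome, fell by 1.16 (SE 0.25). Non-yellowing 1 (GRMZM2G103881), the stay-green gene SGR1 of chlorophyll breakdown, had 0.97, 0.77 and 0.78 in T250 1 d roots, against 1.86, 1.59 and 2.18 in T250 0 d roots, a log2 ratio of -1.04 (SE 0.25). The groups did not overlap in any of the 3, and the adjusted p lay between 0.75 and 0.864. Descriptions exist only for transcripts that the study had listed in some comparison of these arrays, so a count over them is not independent evidence. By gene symbol, which does not depend on these arrays, none of the 12 tested members of an autophagy and senescence list passed. Their median log2 ratio was -0.01. That list left out SGR1, which has a gene symbol and fell.

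In all, 22 lists were drawn up from RefSeq gene symbols, and 18 of them held no transcript past the threshold. Of all transcripts with a symbol 1.01% passed. The MYB list had 2 of 41 that fell, MYBR21 and MYB139, neither of which passed with the replicate block, and the N assimilation, gibberellin and alternative oxidase lists had 1 each, of 10, 8 and 2 tested. The list medians ran from -0.48 to 0.95 around the median of 0.02 over all transcripts. The expansins, which loosen the wall in growing cells, had 0 of 11 past the threshold and a median of 0.13. The aquaporins had 0 of 19 (median -0.01), the auxin genes 0 of 26 (median 0.10), the jasmonate genes 0 of 18 (median -0.26), the WRKY factors 0 of 17 (median -0.23) and the NAC factors 0 of 26 (median -0.25).

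The highest list median, 0.95, was that of 8 transcripts matched to flavonoid symbols, none of which passed. Without T250 0 d replicate 1 the median was 0.40, below the 0.70 of the histones. The 0.40 covers 7 members rather than 8, so the drop cannot be laid to that array alone. One of the 8, bzip1, matched through an alias only, and the median of the other 7 was 1.28. The log2 ratios ran from -3.01 to 3.54. The anthocyanin gene bronze1 (GRMZM2G165390) had 5.39 and 5.43 in T250 1 d replicates 2 and 3, with replicate 1 marked, against 2.73, 2.97 and -0.07 in T250 0 d roots. The gene a2 (GRMZM2G345717), which acts before it in the same path, had 3.32, 6.19 and 5.56 in T250 1 d roots, against 3.50, 4.00 and -0.28 in T250 0 d roots. The 0 d arrays spread over several units in both, and the log2 ratios were 3.54 (SE 0.97) for bronze1 and 2.62 (SE 1.29) for a2, with adjusted p-values of 0.864 and 0.866. The chalcone synthase gene c2 (GRMZM2G422750), at the start of the path, had 1.78, 2.84 and -8.96 in T250 1 d roots, against 2.15, 1.49 and 1.05 in T250 0 d roots, with 1 of the 1 d arrays far below all others. The sulfate and phosphate transporter lists had no member past the threshold, of 2 and 6 tested.

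**Figure D5:**
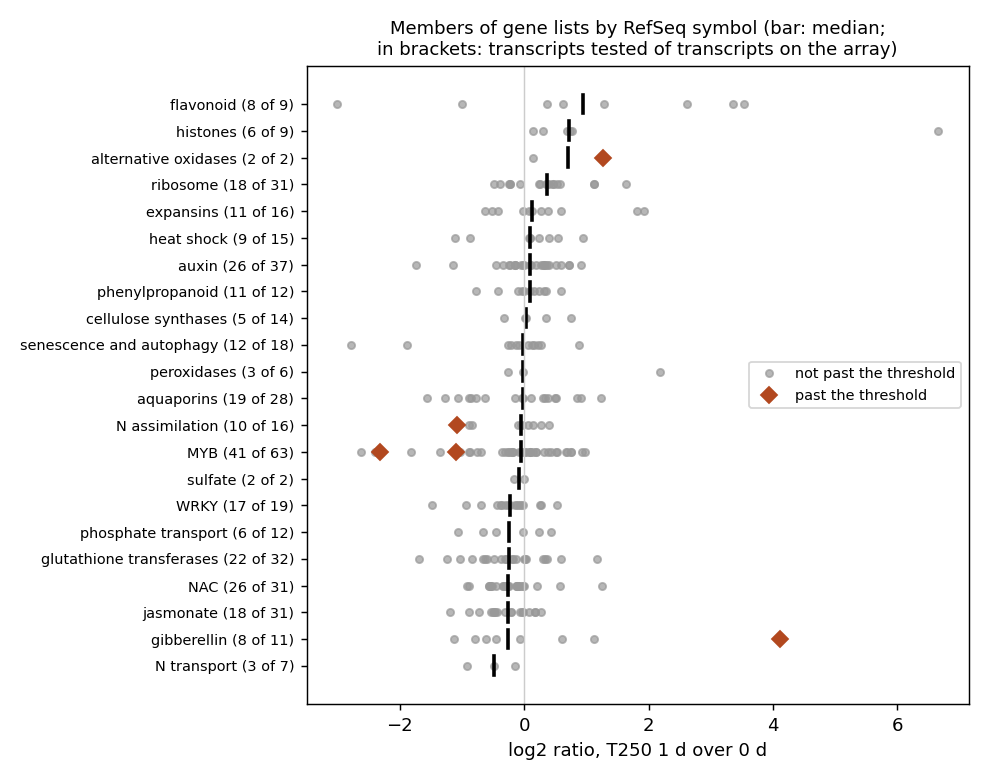
Log2 ratio of T250 1 d over T250 0 d for each tested member (points) of 22 lists drawn up from gene symbols, with the list's median as a bar and orange diamonds for members past the unadjusted threshold. The medians lie between -0.48 and 0.95, and diamonds appear in the alternative oxidase, N assimilation, MYB and gibberellin lists.

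The 1 transcript called after adjustment, GRMZM2G169749, has no name in the sources used here. Its level was -1.62, -2.04 and -1.88 in T250 1 d roots, against -7.68, -8.45 and -8.58 in T250 0 d roots, where no array had it well above background. It was at least 24.2-fold higher at 1 d (fitted log2 ratio 6.40, SE 0.32, adjusted p = 0.0122), and 0.161 was the adjusted p with the replicate block. In T250 4 d roots it was high on 1 array only, at -8.26, -2.28 and -7.64 in replicates 1, 2 and 3.

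The same transcript was the 1 of 24346 (0.00411%) whose response at 1 d differed between T250 and Lo5 after adjustment. In Lo5 its level was -7.74, -8.89 and -8.55 at 1 d, against -6.27, -8.60 and -7.29 at 0 d. The fitted difference, T250 minus Lo5, was 7.41 (SE 0.76, adjusted p = 0.0329), but none of the 3 T250 0 d arrays and none of the 6 Lo5 arrays had it well above background. The size of that difference is therefore not measured, and only the bound within T250 holds. The third of these Lo5 1 d arrays lay at 0.01 on the scale from T250 to Lo5 on which the other Lo5 arrays lay between 0.94 and 1.04. Without it no transcript passed, and the lowest adjusted p was 0.132. Nitrate transporter 1.5 (GRMZM2G044851) had a log2 ratio of 2.07 at 1 d in Lo5 with all 3 arrays, and of 1.63 without the third. With all 3, the T250 response exceeded that of Lo5 by 1.09 (SE 0.75), a difference that did not pass after adjustment.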

How the data were processed

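Each sample's Cy3-labelled cRNA was hybridised to 1 Agilent 1-colour maize array. The deposited intensity values, per the file headers, are spot signals that the authors' Agilent Feature Extraction software (10.5.1.1) had background-corrected and detrended within the array; the authors did no scaling between arrays in these files, and their value table was used only as an alternative. The marks of detection and of non-uniform or outlying spots come from the same software.

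Control spots and marked spots were left out. The log2 of each deposited signal was taken minus the array's 75th percentile. A probe was tested if all 3 arrays of one of the groups had it well above background and each group had at least 2 unmarked spots. T250 1 d and T250 0 d were compared with limma 3.58.1 (R 4.3.3, lmFit and eBayes, two-sided) on the 6 arrays, with Benjamini-Hochberg adjustment over all 25034 probes. The threshold of the study's methods was applied to the limma p. Responses of T250 and Lo5 were compared as an interaction on 12 arrays. A bound ("at least") sets the brighter group's mean against the other group's mean of, per array, the lowest signal among probes well above background or the probe's own signal if higher.

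Replicate numbers of 0 d and 1 d also number the slides. Same-numbered arrays deviated together from their group means (correlations across probes of 0.34, 0.14 and 0.23), so the numbers were taken to pair the arrays. On simulated data with 200 transcripts changed by 2 log2 units, the threshold recovered 161, with 213 false ones, and the adjusted p recovered 18.

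Of the 39372 probes, 18726 matched a RefSeq gene (Zm-B73-REFERENCE-NAM-5.0, used for names only), 2634 had a gene symbol and 899 a description given with the study's transcript lists. The transcripts named are the adjusted calls, up to 15 in each direction with the largest log2 ratios among those with a name that passed the threshold, had groups that did not overlap and were called well above background by all 3 arrays of the higher group, up to 4 with the lowest p in each list by description, and genes of N transport and metabolism the study treats; others named are list members or were chosen after their values were seen. The comparison, the lists and the tests were chosen with earlier results of these data known. Figures were drawn with matplotlib 3.10.9.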

Additional observations from a re-analysis of the deposited data

Results flagged for a closer look

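The response at 1 d of GRMZM2G169749, a transcript with no name in the sources used here, passed the test of a difference between the lines, with a fitted difference of 7.41 on the log2 scale (T250 minus Lo5, SE 0.76, limma adjusted p = 0.0329 over 24346 transcripts). No T250 0 d array and none of the 6 Lo5 arrays at 1 d and 0 d had it well above background, so the size of the difference is not measured, and within T250 the rise has only the bound of at least 24.2-fold. All 3 T250 slides showed it higher at 1 d. The library labelled Lo5 1 d replicate 3 lay with T250 on the scale between the lines, and with it left out no transcript passed, the lowest adjusted p being 0.132.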

How the results depend on the processing

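The count of transcripts past the unadjusted threshold, 178, was 61 with the methods' t-test, 312 with limma on all 18 arrays, 451 on 17 arrays with the one labelled Lo5 1 d replicate 3 left out, and 115 when transcripts that differ among the T250 4 d arrays were left out, an alternative chosen after seeing the data. Leaving out 1 array at a time gave 74 to 1237, the highest without T250 0 d replicate 1 (475 without T250 1 d replicate 1, 83 and 74 without T250 1 d replicates 2 and 3, 84 without T250 0 d replicate 3). The count after adjustment, 1, was 0 with the t-test, with the replicate block or the slide as a block, with normexp background correction, with probes well above background on all 6 arrays, with T250 0 d replicate 1 alone as 0 d, and with those 4 d transcripts left out. It was 2 on the 9 T250 arrays and on all 18, 5 on 17 arrays, and 0 to 511 when 1 array was left out. The replicate block gave 214 past the unadjusted threshold, and 9 of 40 named transcripts that had passed did not pass with it. With the methods' t-test 15 of the 40 did not pass, and with limma on all 18 arrays 13 did not. The count of line differences, 1, was 0 when that array was left out and 0 to 124 when 1 array was left out, the highest without T250 0 d replicate 1 and 13 without T250 1 d replicate 1. With the replicate block it was 1. Under normexp, which moved the median of all transcripts by 0.24 to 0.26, 4 dim transcripts that had fallen turned above 0: GRMZM2G042516 (0.025), GRMZM2G179349 (0.11), GRMZM2G000536 (0.28) and GRMZM2G428179 (0.40), the first 2 still below that median. That setting also changed the split to 86 higher and 35 lower, against 87 and 91. The cause was not tested. Of the 40, 20 more kept their direction under normexp but did not pass. No other setting turned a named transcript that had passed. Few arrays limit what adjustment can call, and transcripts that no array of a group had well above background have bounds only.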

Other observations

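Of the 178 transcripts past the unadjusted threshold, 176 were measured on the T250 4 d arrays, and 90 of them (51.1%) differed there by at least 1 unit between replicate 3 and replicates 1 and 2. Of all 24045 transcripts tested and measured at 4 d, 5840 (24.3%) did. Histone genes, whose proteins package DNA, lay above 0 for all 6 members tested, with a median log2 ratio of 0.72, and NAC transcription factors lay below 0 for 23 of 26, with a median of -0.25. Of all 25034 transcripts tested, 12955 lay above 0 and 12052 below. The lists by description differed, with 4 of 5 histone and replication transcripts above 0 (median 0.15) and 5 of 8 NAC transcripts above 0 (median 0.13). No member of these lists passed the threshold.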
